A study of Mus musculus with 9 samples.

Results

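The genes described here are 33 genes of sterol and fatty acid synthesis, chosen by gene name from the 56748 genes of a deposited expression table. They comprise 5 genes that encode or regulate the sterol regulatory element-binding proteins (SREBPs) and 7 enzymes of the mevalonate and isoprenoid pathway. The others are 11 enzymes of squalene and sterol synthesis, 4 genes of sterol transport and esterification, and 6 enzymes of fatty acid synthesis. Their transcripts were measured by RNA sequencing of the mouse macrophage line RAW264.7, with 9 libraries in 3 groups of 3. All cells were under a model condition, which the labels leave undescribed. The PBS group is the control and received buffer alone. The P-Mn@mHSA group received nanoparticles that carry nanoenzymes, which are materials with enzyme-like activity. In the P-Mn/TI@mHSA group the particles held, in addition, an agent against TRAF6, which is an adaptor and ubiquitin ligase in Toll-like and interleukin-1 receptor signalling. Dose, exposure time and the inhibitor's identity are not given in the labels. There was no group with the inhibitor alone and none with particles lacking the nanoenzymes. The labels call the libraries triplicates without saying that they came from separate cultures, so the p-values reflect variation among libraries that could be purely technical.

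SREBPs are transcription factors made as inactive precursors in the membrane of the endoplasmic reticulum. When sterols are low, the escort protein SCAP carries them to the Golgi apparatus, where proteases release the active fragment, and when sterols are high, INSIG proteins hold SCAP back. The Srebf2 product mainly drives genes of cholesterol synthesis and the Srebf1 product mainly those of fatty acid synthesis. Macrophages also take in large amounts of cholesterol with engulfed particles, which they release from lysosomes, store as esters or export.

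Total counts were 13994570 to 15543439 per library, and all 33 genes passed the filter on low counts that left 12454 genes for testing. They held 0.559 to 0.607% of all counts with PBS, 0.478 to 0.534% with P-Mn@mHSA and 0.482 to 0.515% with P-Mn/TI@mHSA. Of 10 macrophage markers 9 exceeded 10 CPM (counts scaled to a common library size by TMM) in every library, and Fcgr3 was at 0.273 to 2.23 CPM. The summed macrophage markers ran from 6640 to 7042 CPM with PBS, 5789 to 6291 with P-Mn@mHSA and 6165 to 6609 with P-Mn/TI@mHSA. Single markers varied more over the 9 libraries, Lyz2 from 463 to 1851 CPM and Adgre1 from 24.7 to 114.8. Itgam ran from 45.8 to 173 and Laptm5 from 642.5 to 1398, while Cd68, at 530 to 675, varied less. The part of the macrophage markers in the results was not tested. Each of the T cell, B cell and epithelial lists summed to at most 0.335 CPM in any library, fibroblast markers to at most 2.77 and endothelial markers, mainly Pecam1, to at most 6.79. P-Mn@mHSA replicate 2 stood farthest from the rest of its group, with a chi-square per gene of 9.28 and 13.2 to the other libraries of the group against 3.80 to 6.57 in the other pairs. Without it 23, 26 and 4 of the 33 genes changed in the 3 comparisons, where 25, 26 and 6 did with it. In bulk samples, fewer cells of a kind and less RNA per cell cannot be told apart.

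Setting P-Mn@mHSA against PBS asks what the nanoenzyme particle does to these transcripts. Most enzymes of sterol synthesis were lower with the particle, while Srebf1 and Scap, 2 of the genes that encode or regulate SREBPs, were higher. In the edgeR quasi-likelihood fit across all genes, with Benjamini-Hochberg adjusted p under 0.05 as the threshold, 20 of the 33 genes fell, 5 rose and 8 did not pass. Among all genes tested 24.1% fell and 24.3% rose, 48.5% in all. The 33 genes were chosen with earlier results of these data known. Setting them beside all genes, here and in the other comparisons, is therefore not an independent check. The median log2 fold change was -0.26 over the 33 genes and -0.0023 over all genes tested. The groups did not overlap, with every treated library lower, in 21 of the 33 genes, against 27.4% of all genes. With libraries scaled by their totals 23 fell and 1, Scap, rose, and 37.8% of all changed genes were higher in place of 50.2%.

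The comparison of P-Mn/TI@mHSA with PBS asks the same of the particle with the TRAF6 inhibitor. It used the same 3 PBS libraries, so the comparisons with PBS are not independent of each other. In it 22 of the 33 genes fell, 4 rose and 7 did not pass, beside 27.3% of all genes tested that fell and 27.1% that rose, 54.4% in all. The median log2 fold change was -0.45 over the 33 genes and -0.01 over all genes. All P-Mn/TI@mHSA libraries lay below all PBS libraries in 23 genes, against 30.7% of all genes tested. With library totals 23 fell and 3 rose, and the share of all changed genes that were higher was 39.4% in place of 49.8%.

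The comparison of P-Mn/TI@mHSA with P-Mn@mHSA asks what the inhibitor adds to the particle. Hmgcs1, Idi1, Cyp51, Sc5d, Npc2 and Scd1 were lower with the inhibitor, no gene of the 33 was higher, and 27 did not pass the edgeR threshold, 16 of 33 genes having an unadjusted p under 0.05. Of all genes tested 2.34% fell and 1.48% rose, 3.82% in all. The median log2 fold change was -0.15 over the 33 genes and -0.01 over all genes, and 24 of 33 estimates were below 0, as were 6421 of 12454. The P-Mn/TI@mHSA libraries lay wholly below the P-Mn@mHSA libraries in 15 of the 33 genes, against 11.7% of all genes. The count of 6 rested on single libraries: leaving out P-Mn@mHSA replicate 1 gave 3, P-Mn/TI@mHSA replicate 1 gave 3 and P-Mn/TI@mHSA replicate 3 gave 2.

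**Figure D1:**
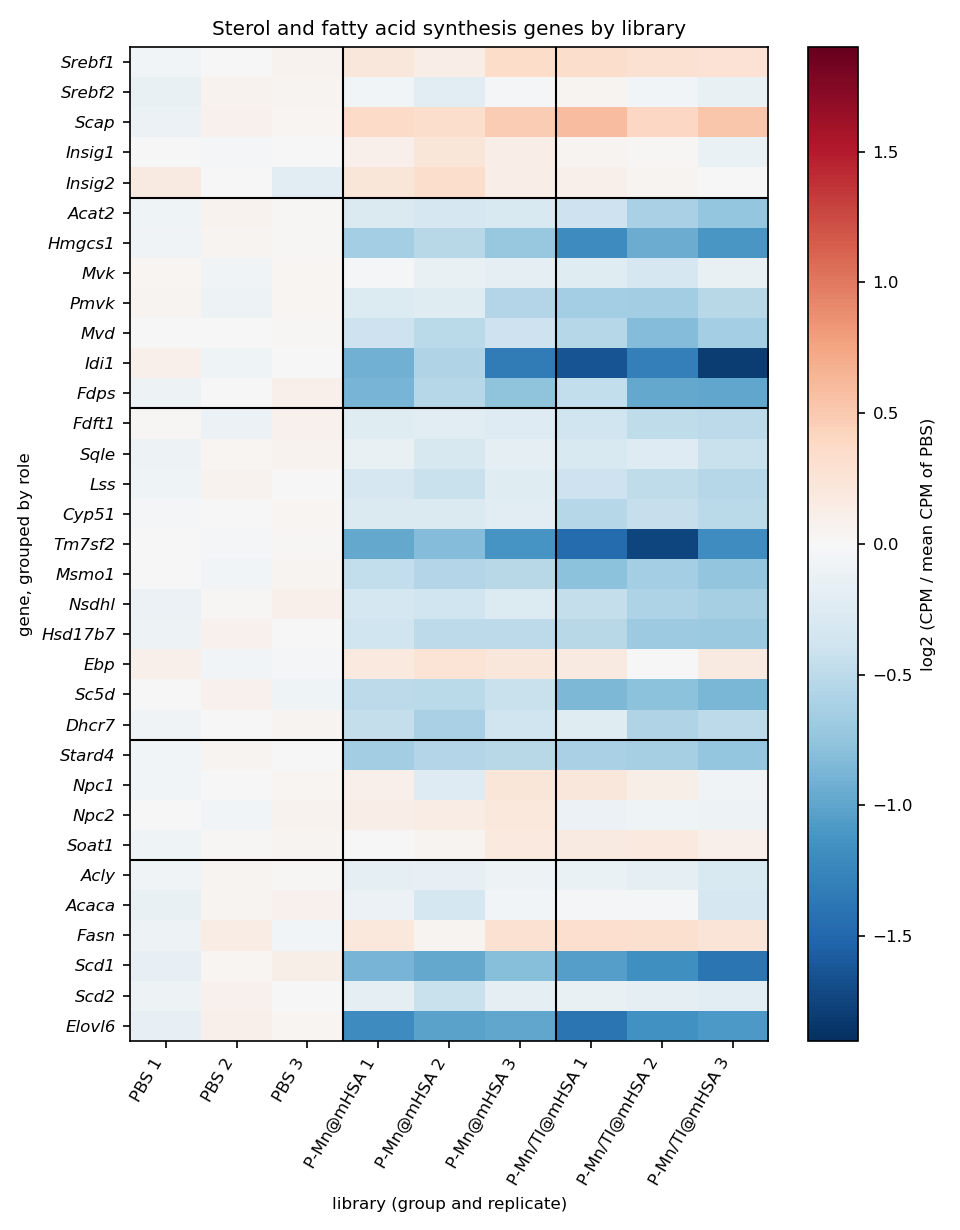
Level of each of the 33 genes (rows, in 5 roles parted by black lines) in each of the 9 libraries (columns), as the log2 ratio of its CPM to the mean CPM of the 3 PBS libraries. Blue fills most rows of the mevalonate and sterol enzymes in the particle groups, darkest in Idi1, Tm7sf2, Scd1 and Elovl6, while Srebf1, Scap and Fasn are red.

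**Figure D2:**
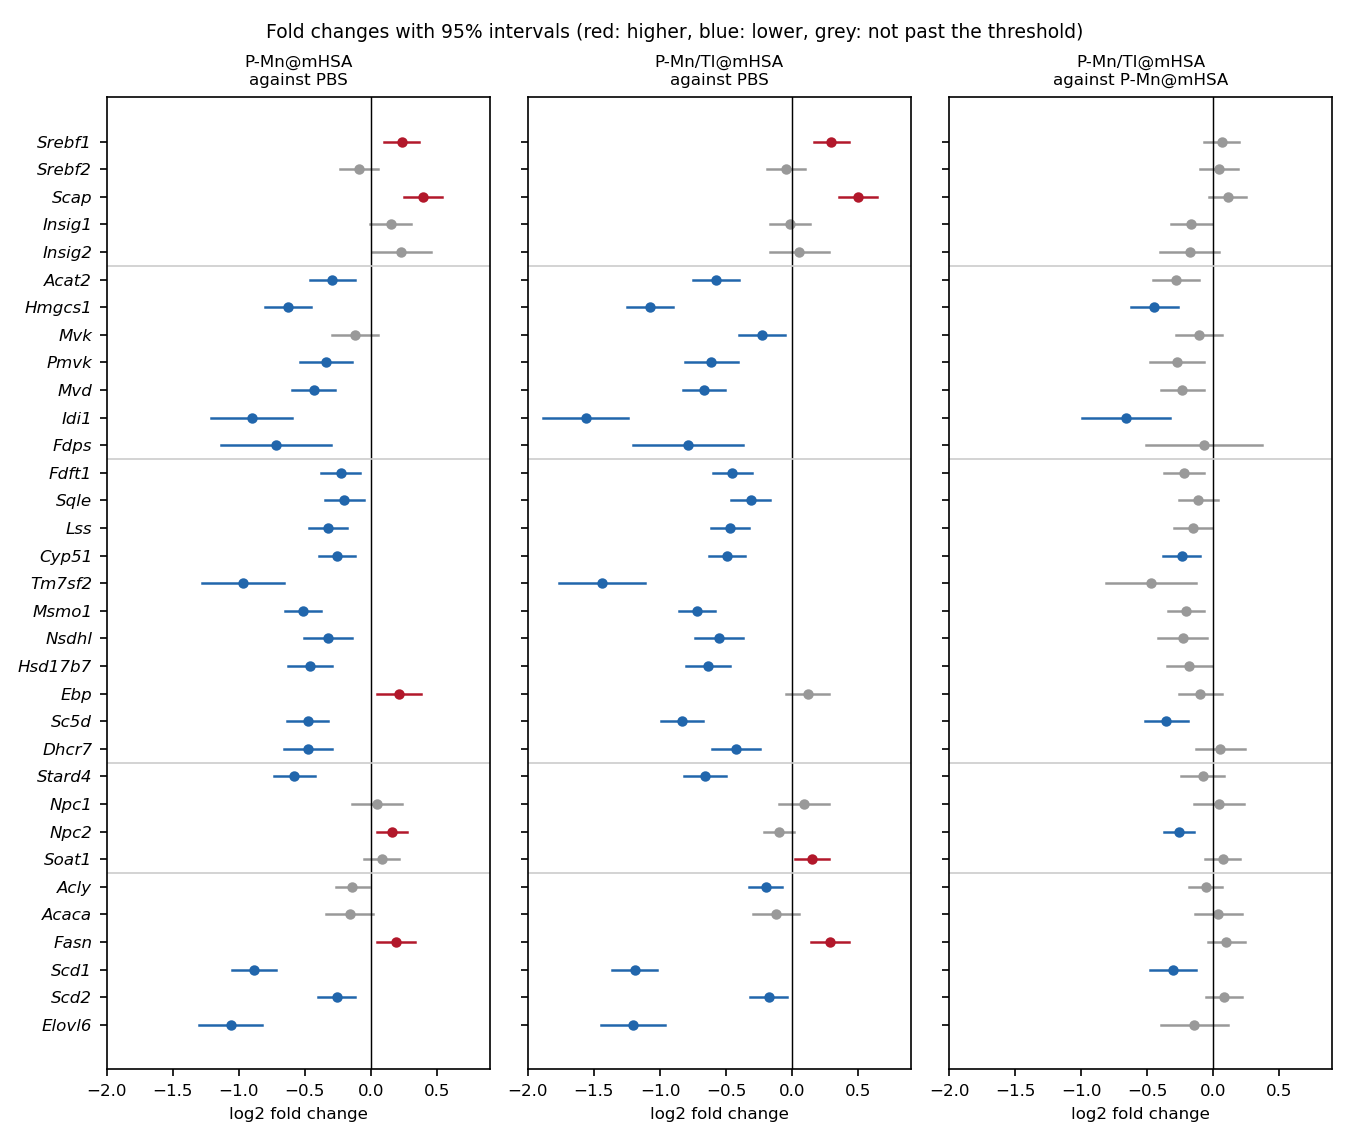
Log2 fold change (x axis) of each gene (y axis) in the 3 comparisons, with 95% intervals from the edgeR fit, coloured by whether the gene passed an adjusted p of 0.05. Against PBS 20 and 22 genes were lower, and between the particles 6 genes were.

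Levels can be compared between genes as FPKM, which divides by gene length. With PBS the highest of the 33 was the desaturase gene Scd2 at 240.5 ± 16.0 FPKM (SD, n = 3), followed by Acly at 85.7 ± 3.73 and Npc2 at 84.6 ± 3.45, which did not differ beyond their spread. Srebf2 stood at 65.2 ± 5.14 FPKM and Srebf1 at 38.4 ± 1.64. The lowest were Fdps at 1.48 ± 0.101 FPKM, Tm7sf2 at 3.23 ± 0.0473 and Elovl6 at 4.55 ± 0.417. Fdps had only 47 to 99 counts per library. In GENCODE M21, 26.2% of its 50-base stretches occur in other genes and 26.7% of its exon bases overlap Gm43738 on the same strand, so its level is uncertain.

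**Figure D3:**
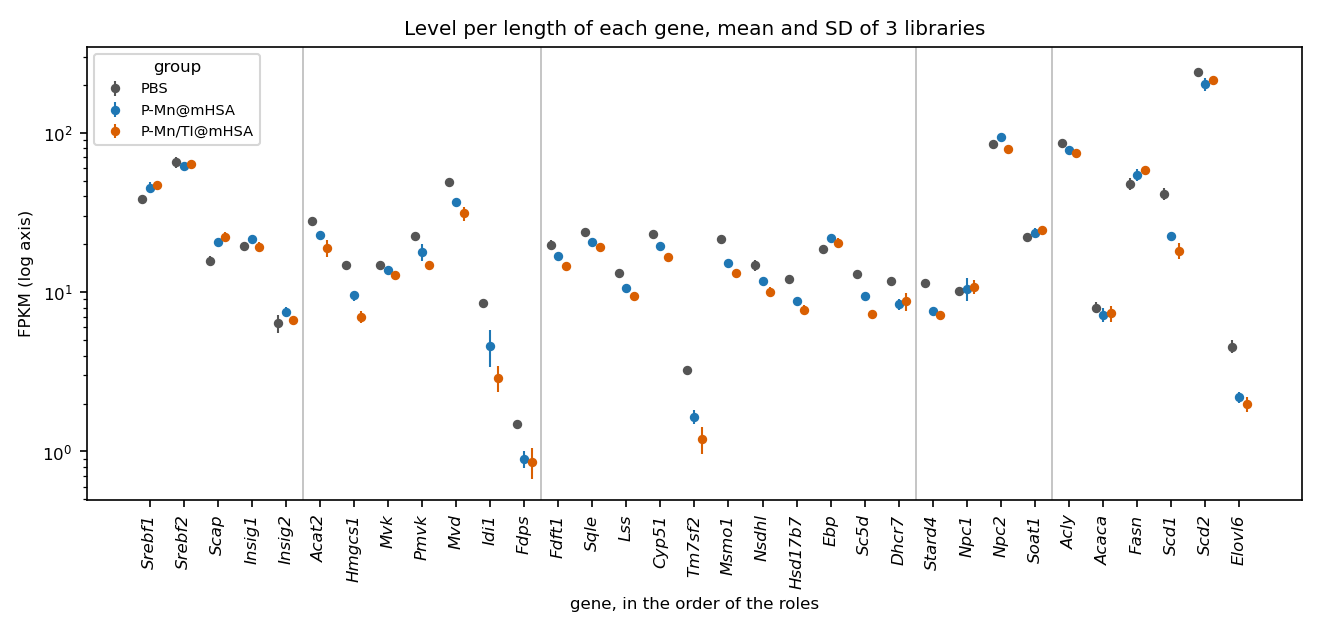
Deposited FPKM (log axis) of each gene as the mean and SD of 3 libraries, coloured by group, in the order of the roles. Scd2 is highest and Fdps lowest in every group, and the drop from PBS to both particle groups is visible in Idi1, Tm7sf2, Hmgcs1, Scd1 and Elovl6.

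Of the 5 genes that encode or regulate SREBPs 2, Srebf1 and Scap, rose and none fell in each comparison with PBS. Among all genes tested 24.3% and 27.1% rose and 24.1% and 27.3% fell, so counts among 5 genes say little. Between the particles none passed the edgeR threshold, and 1 had an unadjusted p under 0.05. Scap, which encodes the escort protein of the SREBPs, had 109, 124 and 121 CPM with PBS, 152, 148 and 165 with P-Mn@mHSA, and 177, 156 and 169 with P-Mn/TI@mHSA. All particle libraries were above all PBS libraries, and the particle groups overlapped each other. It rose 1.31-fold with P-Mn@mHSA (edgeR adjusted p 8.07e-05) and 1.42-fold with P-Mn/TI@mHSA (adjusted p 3.26e-06). Scap overlaps 5830462I19Rik on the opposite strand over 13.2% of its exon bases, and whether the authors counted by strand is not stated.

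Srebf1, the precursor gene of the factor tied to fatty acid synthesis, had 209.8, 217 and 228 CPM with PBS, 253, 237 and 278 with P-Mn@mHSA, and 276, 266 and 263 with P-Mn/TI@mHSA. Every particle library exceeded every PBS library. It rose 1.18-fold and 1.23-fold against PBS (edgeR adjusted p 0.00476 and 0.000499). The first of these calls was lost when libraries were scaled by their totals alone (adjusted p 0.0516) and after rescaling to TPM (0.181).

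Srebf2, the precursor gene of the factor tied to cholesterol synthesis, had 430.3, 496 and 492 CPM with PBS, 457, 412 and 464 with P-Mn@mHSA, and 488, 457 and 431 with P-Mn/TI@mHSA, and all 3 groups overlapped. Its log2 fold change was -0.09 with P-Mn@mHSA (95% interval -0.23 to 0.05, edgeR adjusted p 0.295) and -0.04 with P-Mn/TI@mHSA (-0.19 to 0.10, adjusted p 0.604). With libraries scaled by their totals the first estimate was -0.17 and passed (adjusted p 0.0465).

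Insig1 and Insig2 encode the proteins that retain SCAP, and Insig1 is itself a well-known SREBP target. Insig1 averaged 60.6 ± 0.644 CPM with PBS, 67.2 ± 3.52 with P-Mn@mHSA and 59.9 ± 3.82 with P-Mn/TI@mHSA. The P-Mn@mHSA libraries, at 64.6 to 71.2 CPM, were above all PBS libraries and above all P-Mn/TI@mHSA libraries, but none of the 3 comparisons passed (edgeR adjusted p 0.101, 0.88 and 0.214, log2 fold changes 0.15, -0.02 and -0.16). Insig2 averaged 22.4 ± 2.93, 26.3 ± 1.85 and 23.2 ± 0.81 CPM in the same order and passed in no comparison (adjusted p 0.0793, 0.702 and 0.364). Without PBS replicate 1 the first of these passed (log2 fold change 0.33, adjusted p 0.0266).

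The mevalonate pathway turns acetyl-CoA into isoprenoid units, the building blocks of sterols, ubiquinone, dolichol and protein prenyl groups. Of its 7 enzymes here 6 fell with P-Mn@mHSA, Mvk being the exception, and all 7 fell with P-Mn/TI@mHSA. The median log2 fold changes of the group were -0.43 and -0.67 against PBS, and -0.27 between the particles, where 2 of 7 were lower. Of all genes tested, 24.1% and 27.3% fell against PBS and 2.34% were lower between the particles.

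Hmgcs1, which encodes the synthase that makes HMG-CoA, had 65.0, 70.3 and 69.0 CPM with PBS, 43.6, 47.5 and 41.2 with P-Mn@mHSA, and 29.9, 35.4 and 31.7 with P-Mn/TI@mHSA. The 3 groups stood apart in that order with no overlap. It fell 1.55-fold with P-Mn@mHSA and 2.11-fold with P-Mn/TI@mHSA (edgeR adjusted p 2.11e-06 and 1.06e-09). Between the particles the log2 fold change was -0.45 ± 0.0856 (SE, edgeR adjusted p 0.00493), and of 19 alternative settings only the rescaling to TPM lost this call (adjusted p 0.0647). In Hmgcs1 12.1% of exon bases overlap Gm48342 on the opposite strand.

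Idi1, the isomerase that balances the pair of isoprenoid units, had 32.2, 28.5 and 30.1 CPM with PBS, 16.1, 20.4 and 12.0 with P-Mn@mHSA, and 9.76, 12.3 and 8.64 with P-Mn/TI@mHSA. Both particle groups lay below PBS, and P-Mn@mHSA replicate 3 fell within the range of the P-Mn/TI@mHSA libraries. Against PBS it fell 1.87-fold and 2.96-fold (edgeR adjusted p 3.45e-05 and 3.55e-08). The difference between the particles was -0.66 ± 0.161 on the log2 scale (SE, adjusted p 0.025). It missed the threshold when P-Mn@mHSA replicate 1 (adjusted p 0.0618) or 2 (0.148) was left out, likewise for P-Mn/TI@mHSA replicates 1 (0.117) and 3 (0.116), and in limma on FPKM and TPM (0.122 to 0.133). Other genes, mostly predicted ones, hold 25.3% of the 50-base stretches of Idi1, so some of its reads may be placed elsewhere.

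The remaining mevalonate enzymes showed smaller differences or fewer reads. Mvd, the decarboxylase that forms isopentenyl diphosphate, went from 92.5 ± 0.863 CPM with PBS to 68.4 ± 3.31 with P-Mn@mHSA and 58.3 ± 5.95 with P-Mn/TI@mHSA, and Pmvk, the second kinase of the pathway, from 38.8 ± 2.04 to 30.6 ± 3.74 and 25.4 ± 1.33. Acat2, the cytosolic thiolase of the first step, went from 72.1 ± 3.81 to 58.8 ± 1.11 and 48.3 ± 5.92 CPM. These 3 genes fell in both comparisons with PBS, by 1.23-fold to 1.35-fold with P-Mn@mHSA and 1.49-fold to 1.59-fold with P-Mn/TI@mHSA, and none passed between the particles (edgeR adjusted p 0.0599 to 0.121). Leaving out P-Mn@mHSA replicate 3 ended the first call of Pmvk (adjusted p 0.053), and without that library it passed between the particles (0.0289). Acat2 passed between the particles with DESeq2 (0.0371), without the filter on low counts (0.036) and without P-Mn/TI@mHSA replicate 1 (0.0347). It shares 39.1% of its 50-base stretches with other genes, most of them with Acat3.

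Mvk, the first kinase, averaged 40.2 ± 1.63 CPM with PBS, 37.0 ± 1.94 with P-Mn@mHSA and 34.3 ± 2.14 with P-Mn/TI@mHSA. It fell with P-Mn/TI@mHSA against PBS (log2 fold change -0.23, edgeR adjusted p 0.0254), a call lost without the filter on low counts (0.0823) and on leaving out PBS replicate 1 (0.0708) or 3 (0.074) or P-Mn/TI@mHSA replicate 1 (0.0599) or 2 (0.0985). With P-Mn@mHSA it did not pass (adjusted p 0.245), except under TPM (0.0307). Fdps, the synthase of farnesyl diphosphate, went from 6.27 ± 0.421 CPM to 3.80 ± 0.480 and 3.63 ± 0.79 and fell 1.65-fold and 1.73-fold (edgeR adjusted p 0.00517 and 0.0022). Given its shared stretches and exon overlap, these falls are uncertain, as is its level. Its interval between the particles, from -0.51 to 0.37 on the log2 scale, was the widest of the 33.

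From farnesyl diphosphate, squalene is made, closed to lanosterol and trimmed to cholesterol. Of the 11 enzymes of this route 10 fell and 1, Ebp, rose with P-Mn@mHSA, and 10 fell with P-Mn/TI@mHSA, Ebp not passing. The median log2 fold changes were -0.32 and -0.49 against PBS and -0.21 between the particles, where 2 of 11, Cyp51 and Sc5d, were lower. The shares of all genes tested that were lower were 24.1%, 27.3% and 2.34% in the same order.

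Cyp51, the cytochrome P450 that removes a methyl group from lanosterol, had 100.4, 104 and 106 CPM with PBS, 85.2, 85.6 and 89.3 with P-Mn@mHSA, and 70.9, 76.7 and 72.8 with P-Mn/TI@mHSA. No group overlapped another. It fell 1.19-fold and 1.41-fold against PBS (edgeR adjusted p 0.00307 and 2.29e-06). The log2 fold change between the particles was -0.24 ± 0.0668 (SE, edgeR adjusted p 0.0476), close to the threshold, and the call was lost in 14 of 19 alternative settings, among them every one that left out a library except PBS replicate 1 (adjusted p 0.0517 to 0.204).

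Sc5d, the desaturase that acts late in the route, had 63.7, 67.8 and 60.6 CPM with PBS, 45.3, 44.8 and 47.8 with P-Mn@mHSA, and 35.6, 37.1 and 35.0 with P-Mn/TI@mHSA. Again the 3 groups were apart. The falls against PBS were 1.39-fold and 1.78-fold (edgeR adjusted p 2.19e-05 and 1.17e-08). Between the particles the change was -0.36 ± 0.0779 on the log2 scale (SE, adjusted p 0.0123), a call that ended on leaving out P-Mn/TI@mHSA replicate 1 (0.0674) or 3 (0.059) and under TPM (0.102).

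Tm7sf2, a sterol reductase gene, had 14.3, 14.2 and 14.6 CPM with PBS, 7.31, 8.10 and 6.61 with P-Mn@mHSA, and 5.22, 4.31 and 6.36 with P-Mn/TI@mHSA. Its groups did not overlap, although P-Mn@mHSA replicate 3 and P-Mn/TI@mHSA replicate 3 were close. It fell 1.96-fold and 2.71-fold against PBS (edgeR adjusted p 1.86e-05 and 1.28e-07) and did not pass between the particles (log2 fold change -0.47, adjusted p 0.11). It overlaps Vps51 on the same strand over 12.1% of its exon bases.

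Msmo1, the oxidase that starts removal of the next methyl groups, had 134, 130.2 and 140 CPM with PBS, 97.1, 91.7 and 93.3 with P-Mn@mHSA, and 78.7, 86.1 and 79.7 with P-Mn/TI@mHSA. The groups were again fully apart. It fell 1.43-fold and 1.65-fold against PBS (edgeR adjusted p 1.33e-06 and 1e-08), and between the particles it had an adjusted p of 0.0835. Its partners Nsdhl and Hsd17b7, a dehydrogenase and a reductase of the same stage, fell 1.25-fold and 1.38-fold with P-Mn@mHSA, and 1.47-fold and 1.56-fold with P-Mn/TI@mHSA.

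Squalene synthase Fdft1, squalene epoxidase Sqle and lanosterol synthase Lss fell by 1.15-fold to 1.25-fold with P-Mn@mHSA and 1.24-fold to 1.39-fold with P-Mn/TI@mHSA. In each of them all PBS libraries were above all particle libraries. Sqle lost its call with P-Mn@mHSA when PBS replicate 2 (edgeR adjusted p 0.071), PBS replicate 3 (0.0973) or P-Mn@mHSA replicate 2 (0.0834) was left out, and Fdft1 lost it without PBS replicate 3 (0.0713). Fdft1 overlaps Ctsb on the opposite strand over 18.3% of its exon bases. Dhcr7, the reductase that can complete cholesterol, went from 68.5 ± 2.65 CPM to 49.2 ± 4.17 and 51.1 ± 6.41, falls of 1.39-fold and 1.34-fold.

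Ebp, the isomerase that shifts the ring double bond, was the exception. It had 46.5, 42.2 and 42.4 CPM with PBS, 49.6, 52.1 and 50.5 with P-Mn@mHSA, and 49.3, 43.5 and 49.4 with P-Mn/TI@mHSA. Only the P-Mn@mHSA libraries were all above those of PBS. It rose 1.16-fold (edgeR adjusted p 0.0313), a call lost under library totals (0.171), upper quartile scaling (0.0589) and rescaling to TPM (0.138), and without PBS replicate 2 (0.0979) or 3 (0.094) or P-Mn@mHSA replicate 2 (0.0664) or 3 (0.0541). With P-Mn/TI@mHSA the log2 fold change was 0.12 (95% interval -0.05 to 0.28, adjusted p 0.226).

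**Figure D4:**
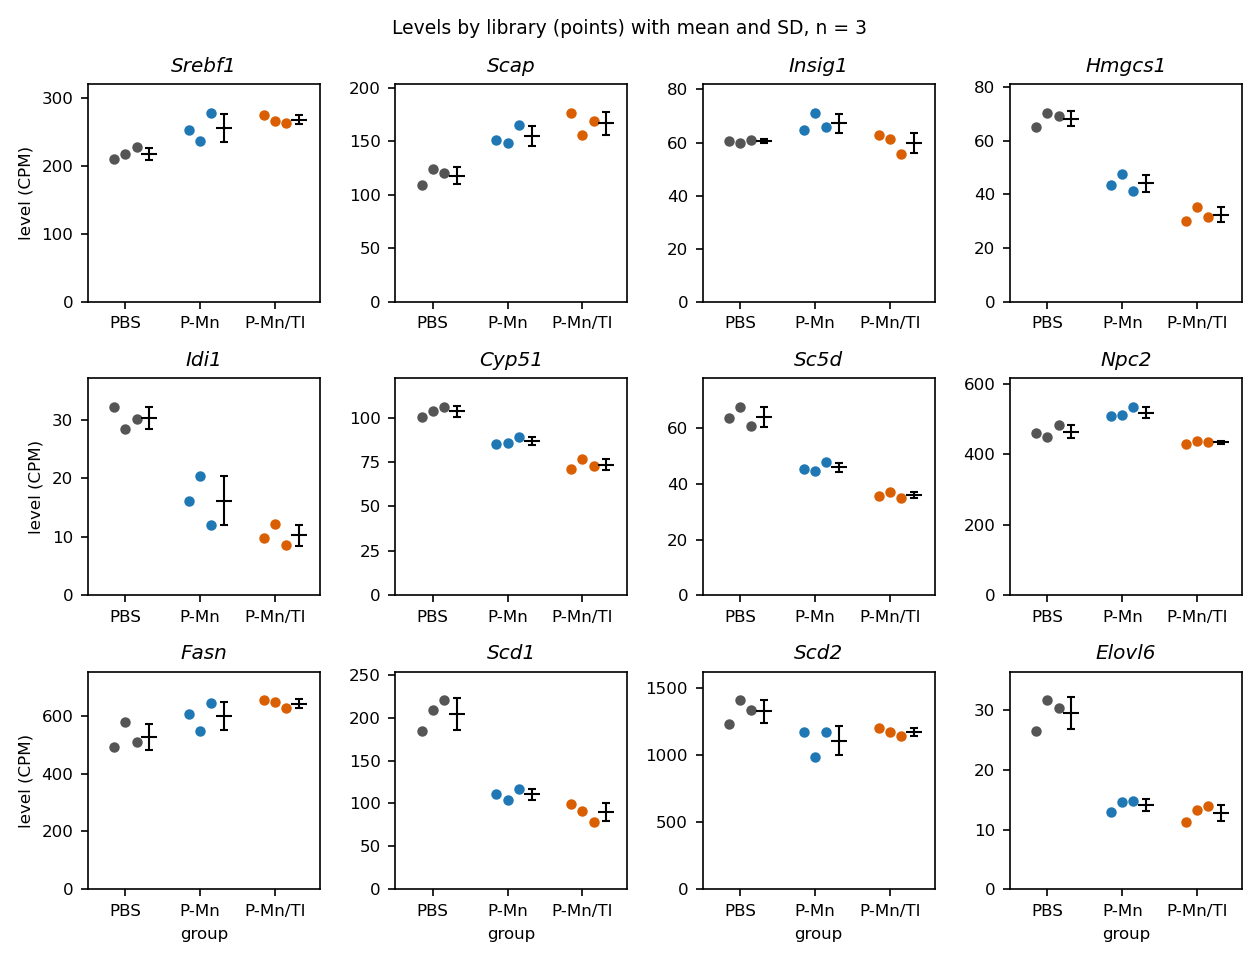
CPM of 12 of the genes in each library (points), with the mean and SD of the 3 libraries of a group beside them; the axis labels P-Mn and P-Mn/TI stand for P-Mn@mHSA and P-Mn/TI@mHSA. Hmgcs1, Cyp51 and Sc5d step down from PBS to P-Mn@mHSA to P-Mn/TI@mHSA without overlap, Npc2 is highest with P-Mn@mHSA, and Srebf1 and Scap are lowest with PBS.

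Promoter sequence is shown for the genes lower with P-Mn/TI@mHSA than with P-Mn@mHSA, where RefSeq held it, and for Elovl6, the only gene of the 33 that fell at least 2-fold with P-Mn@mHSA. Each window is the 250 bases before the annotated start on the gene's strand in GRCm38.p6, 5′ to 3′. They lie at chr13:119690101-119690350 on the plus strand for Hmgcs1, chr13:8885356-8885605 (plus) for Idi1, chr5:4104698-4104947 (minus) for Cyp51, chr9:42264301-42264550 (minus) for Sc5d, chr12:84773113-84773362 (minus) for Npc2 and chr3:129532136-129532385 (plus) for Elovl6. Capitals mark the letters of the searched motifs on either strand. These are the sterol regulatory element as TCACNCCAC or its core CACCCCAC, the E-box CACGTG, the NF-Y box CCAAT and the Sp1 box GGGCGG. The core lies within the longer element in Hmgcs1, and the last match of Sc5d runs past its start.
Hmgcs1: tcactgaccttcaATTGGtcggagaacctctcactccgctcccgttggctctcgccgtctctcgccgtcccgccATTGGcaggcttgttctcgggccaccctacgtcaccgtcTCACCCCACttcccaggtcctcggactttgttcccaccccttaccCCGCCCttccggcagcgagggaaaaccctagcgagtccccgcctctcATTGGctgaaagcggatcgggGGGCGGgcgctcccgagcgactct
Idi1: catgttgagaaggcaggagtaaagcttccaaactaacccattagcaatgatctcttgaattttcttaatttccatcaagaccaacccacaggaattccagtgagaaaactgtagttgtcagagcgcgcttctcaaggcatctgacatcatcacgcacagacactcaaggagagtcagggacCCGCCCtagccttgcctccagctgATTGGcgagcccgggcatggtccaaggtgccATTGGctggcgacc
Cyp51: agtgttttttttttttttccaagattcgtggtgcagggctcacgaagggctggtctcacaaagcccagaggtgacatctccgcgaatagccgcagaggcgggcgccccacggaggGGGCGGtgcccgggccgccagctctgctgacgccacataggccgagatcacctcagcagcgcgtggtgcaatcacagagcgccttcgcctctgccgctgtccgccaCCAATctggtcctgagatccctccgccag
Sc5d: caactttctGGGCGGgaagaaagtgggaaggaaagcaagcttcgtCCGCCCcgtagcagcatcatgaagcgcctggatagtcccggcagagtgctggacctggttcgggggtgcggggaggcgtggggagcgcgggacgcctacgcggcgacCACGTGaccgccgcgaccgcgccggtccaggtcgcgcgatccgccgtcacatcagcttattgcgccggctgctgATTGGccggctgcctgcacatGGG
Npc2: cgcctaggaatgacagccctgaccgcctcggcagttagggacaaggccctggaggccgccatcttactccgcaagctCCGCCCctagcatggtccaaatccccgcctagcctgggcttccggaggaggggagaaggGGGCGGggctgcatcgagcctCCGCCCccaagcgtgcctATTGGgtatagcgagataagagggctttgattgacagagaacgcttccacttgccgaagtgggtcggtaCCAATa
Elovl6: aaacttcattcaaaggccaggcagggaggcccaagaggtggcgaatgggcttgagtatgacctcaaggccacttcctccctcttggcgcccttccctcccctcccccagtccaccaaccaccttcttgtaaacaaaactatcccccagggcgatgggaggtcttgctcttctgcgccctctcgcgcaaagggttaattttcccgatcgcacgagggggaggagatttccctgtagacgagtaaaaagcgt

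In these windows Hmgcs1 holds TCACCCCAC at -137 to -129 from its start, with CCAAT on the opposite strand on both sides of it. Idi1, Cyp51, Sc5d and Npc2 hold CCAAT within 100 bases of the start, and Elovl6 holds none of the motifs. RefSeq windows from 250 bases before to 50 after the start were found for 26 of the 33 genes and for 27025 genes in all, and a gene with several starts counts if any window matches. CCAAT occurred in 22 of 26 (84.6%) and in 41.1% of all genes, and GGGCGG in 22 (84.6%) and 38.2%. The E-box occurred in 5 of 26 (19.2%), namely Insig1, Scap, Hsd17b7, Sc5d and Dhcr7, and in 8.09% of all genes. A sterol regulatory element by either spelling occurred in 2 of 26 (7.7%), Hmgcs1 and Acat2, and in 4.09% of all genes. The 27025 genes include many outside the 12454 tested here, while all 33 members were tested, so these shares are not matched for expression. A match describes letters and is not evidence of binding.

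**Figure D5:**
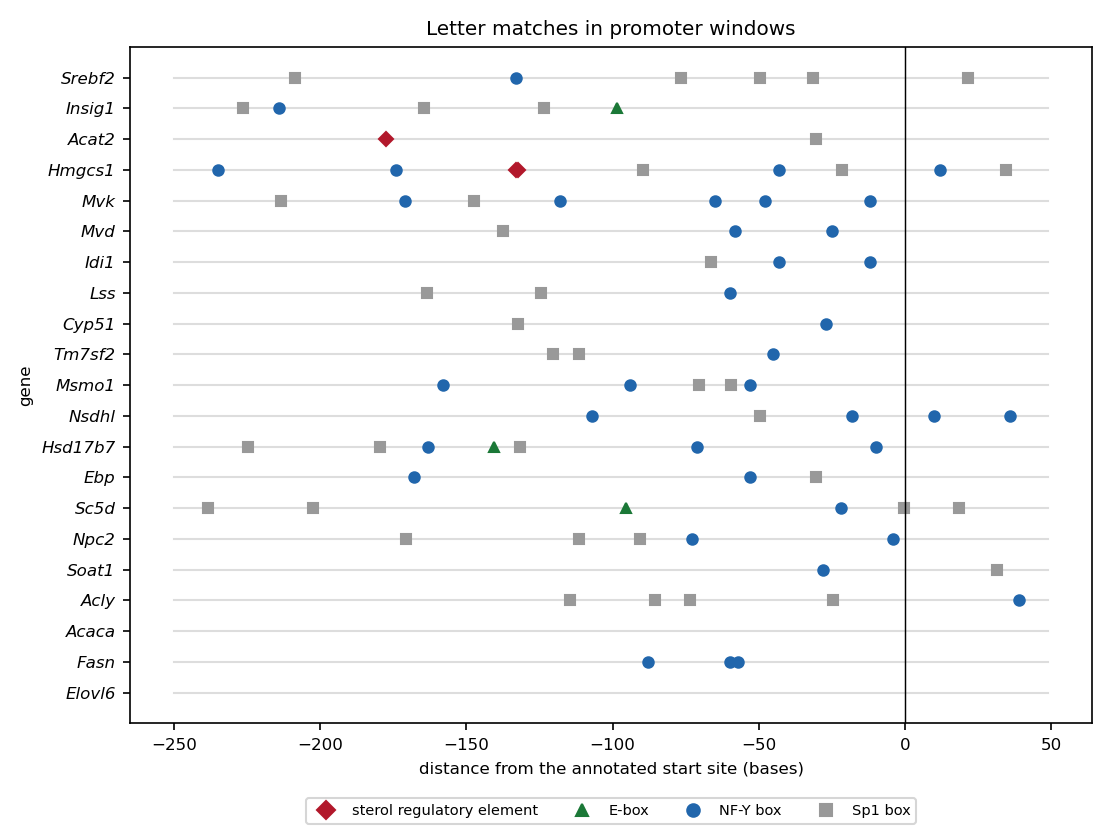
Positions (bases from the annotated start, x axis) of motif matches in the promoter windows of the 21 genes with a single RefSeq window (y axis). NF-Y and Sp1 boxes occur in most rows, the sterol regulatory element in Hmgcs1 and Acat2, and Acaca and Elovl6 have no match.

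The 4 genes of sterol transport and esterification went different ways. Stard4, a cytosolic sterol carrier, had 61.9, 66.1 and 64.0 CPM with PBS, 40.7, 43.5 and 44.5 with P-Mn@mHSA, and 41.7, 41.6 and 38.4 with P-Mn/TI@mHSA. Both particle groups lay below PBS and overlapped each other. It fell 1.49-fold and 1.58-fold (edgeR adjusted p 2.09e-06 and 2.87e-07), and the interval between the particles ran from -0.24 to 0.08 on the log2 scale (adjusted p 0.611).

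Npc2, the soluble lysosomal protein that hands cholesterol to NPC1, had 461, 448 and 484 CPM with PBS, 509, 511 and 535 with P-Mn@mHSA, and 429, 437 and 435 with P-Mn/TI@mHSA. The P-Mn@mHSA libraries were the highest and the P-Mn/TI@mHSA libraries the lowest, with no overlap. It rose 1.12-fold with P-Mn@mHSA against PBS (edgeR adjusted p 0.0222) and was 1.20-fold lower with P-Mn/TI@mHSA than with P-Mn@mHSA (adjusted p 0.0112), and P-Mn/TI@mHSA against PBS did not pass (log2 fold change -0.10, adjusted p 0.141). The rise was lost under library totals (0.244) and TPM (0.332), and without PBS replicate 1 (0.055) or 2 (0.0863) or P-Mn@mHSA replicate 3 (0.0837). The difference between the particles was lost under TPM (0.105) and without P-Mn/TI@mHSA replicate 1 (0.0763). With library totals, upper quartile scaling and TPM, Npc2 was below PBS with P-Mn/TI@mHSA (adjusted p 0.00942, 0.0462 and 0.0457).

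Npc1, the lysosomal membrane exporter, averaged 116 ± 3.61 CPM with PBS, 119.6 ± 19.6 with P-Mn@mHSA and 123 ± 11.6 with P-Mn/TI@mHSA, and passed in no comparison (edgeR adjusted p 0.701, 0.421 and 0.836). Its P-Mn@mHSA libraries spread from 98.1 to 136 CPM, replicate 2 being lowest. Soat1, which esterifies cholesterol for storage, averaged 219 ± 9.65, 231.5 ± 15.5 and 243 ± 8.95 CPM. Its rise with P-Mn/TI@mHSA against PBS (1.11-fold, edgeR adjusted p 0.0455) was lost in 12 of 19 alternative settings, including those without PBS replicate 1, 2 or 3 (0.173, 0.0657 and 0.0508), P-Mn@mHSA replicate 1 (0.0506), or P-Mn/TI@mHSA replicate 1 or 2 (0.114 and 0.162).

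Fatty acid synthesis builds palmitate from acetyl-CoA, after which elongases and desaturases shape the chains. The desaturase and elongase genes Scd1, Scd2 and Elovl6 fell in both comparisons with PBS, whereas Fasn rose and Acaca did not pass. The median log2 fold changes of the 6 genes were -0.21 and -0.19 against PBS and -0.01 between the particles.

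Scd1, a desaturase that makes oleate, had 184, 209.8 and 221 CPM with PBS, 111, 104 and 117 with P-Mn@mHSA, and 98.9, 91.7 and 78.6 with P-Mn/TI@mHSA. The groups stood apart, PBS far above both others. It fell 1.85-fold and 2.28-fold against PBS (edgeR adjusted p 1.25e-08 and 1.55e-10). Between the particles the change was -0.30 ± 0.0826 on the log2 scale (SE, adjusted p 0.0425). That call ended in 8 of 19 alternative settings, among them leaving out P-Mn@mHSA replicate 1 (0.105) or 3 (0.0714) or P-Mn/TI@mHSA replicate 2 (0.0819) or 3 (0.196), and limma on FPKM and TPM (0.143 to 0.242).

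Elovl6, which lengthens palmitate, had 26.5, 31.7 and 30.4 CPM with PBS, 12.9, 14.7 and 14.8 with P-Mn@mHSA, and 11.3, 13.3 and 13.9 with P-Mn/TI@mHSA. Every PBS library was above every particle library, and the particle groups overlapped. It fell 2.09-fold and 2.31-fold (edgeR adjusted p 1.75e-07 and 2.67e-08), and the interval between the particles was -0.40 to 0.11 on the log2 scale (adjusted p 0.566). At 2-fold or more Elovl6 was 1 of the 33 genes lower with P-Mn@mHSA, beside 5.67% of all genes tested. With P-Mn/TI@mHSA 5 of the 33 were, Hmgcs1, Idi1, Tm7sf2, Scd1 and Elovl6, beside 7.32%.

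Scd2, a desaturase of the same family and the most abundant of the 33 transcripts per length, had 1234, 1408 and 1334 CPM with PBS, 1168, 984 and 1170.0 with P-Mn@mHSA, and 1203, 1168 and 1144 with P-Mn/TI@mHSA. All particle libraries were below PBS, and P-Mn@mHSA replicate 2 was lowest. It fell 1.20-fold and 1.13-fold (edgeR adjusted p 0.00308 and 0.03). The call with P-Mn/TI@mHSA was lost on leaving out PBS replicate 2 (0.13) or 3 (0.0677) or P-Mn/TI@mHSA replicate 2 (0.0576) or 3 (0.0988), and in limma on FPKM and TPM (0.0646 to 0.0804). Scd1 and Scd2 share 4.56% and 3.97% of their 50-base stretches with other genes, among them each other.

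Fasn, the synthase of palmitate, had 493, 578 and 509 CPM with PBS, 607.6, 547 and 646 with P-Mn@mHSA, and 655, 648 and 626 with P-Mn/TI@mHSA. The P-Mn/TI@mHSA libraries were all above PBS, while PBS replicate 2 exceeded P-Mn@mHSA replicate 2. It rose 1.14-fold and 1.22-fold (edgeR adjusted p 0.0264 and 0.00121). The rise with P-Mn@mHSA was lost in 8 of 19 alternative settings, including library totals (0.193) and those without PBS replicate 1 or 3 (0.127 and 0.0928) or P-Mn@mHSA replicate 1 or 3 (0.0758 and 0.136), and that with P-Mn/TI@mHSA under TPM (0.0546).

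Acly, which makes cytosolic acetyl-CoA from citrate, averaged 456 ± 19.5 CPM with PBS, 414 ± 10.3 with P-Mn@mHSA and 398 ± 23.1 with P-Mn/TI@mHSA. It fell 1.15-fold with P-Mn/TI@mHSA (edgeR adjusted p 0.00762, and 0.0661 without P-Mn/TI@mHSA replicate 3). With P-Mn@mHSA it had an adjusted p of 0.0562, and it passed without PBS replicate 1 (0.0336), with DESeq2 (0.0485), library totals (0.00402), upper quartile scaling (0.0219) and TPM (0.0223). Acaca, the carboxylase that makes malonyl-CoA, averaged 138 ± 11.0, 123 ± 12.6 and 127 ± 14.1 CPM and passed in no comparison (edgeR adjusted p 0.132, 0.241 and 0.851), except with P-Mn@mHSA under library totals (log2 fold change -0.24, adjusted p 0.0277). Its log2 fold changes against PBS had 95% intervals of -0.34 to 0.02 and -0.30 to 0.06. The predicted gene Gm5182 holds most of the 30.4% of its 50-base stretches that occur elsewhere.

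Genes around the pathway were counted in 8 other lists. Their counts stand beside 24.3% of all genes tested that rose and 24.1% that fell with P-Mn@mHSA, 27.1% and 27.3% with P-Mn/TI@mHSA, and 1.48% and 2.34% between the particles, and counts near these shares, such as those of SREBP processing and of fatty acid oxidation with P-Mn@mHSA, say little about the lists. Of 15 genes for SREBP processing and turnover 4 rose and 3 fell with P-Mn@mHSA, 4 rose and 2 fell with P-Mn/TI@mHSA, and none passed between the particles (2 at an unadjusted p under 0.05). Mbtps2, a protease that releases SREBPs, fell 1.46-fold and 1.44-fold, from 72.8 ± 9.31 CPM to 50.1 ± 2.55 and 50.5 ± 4.94. Syvn1, a ubiquitin ligase of the endoplasmic reticulum, rose 1.84-fold and 1.81-fold, from 53.2 ± 1.77 CPM to 97.7 ± 20.5 and 96.0 ± 1.61.

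The isoprenoid branches showed 2 of 15 genes higher and 4 lower with P-Mn@mHSA, 4 higher and 7 lower with P-Mn/TI@mHSA, and 1 lower between the particles. Nus1 and Dhdds encode the subunits of the enzyme that makes dolichol precursors. Nus1 fell 1.66-fold in both comparisons with PBS, from 202 ± 6.59 CPM to 121.5 ± 8.79 and 122 ± 4.94, and Dhdds rose 1.30-fold and 1.23-fold. The geranylgeranyl diphosphate synthase gene Ggps1 was lower with P-Mn/TI@mHSA than with P-Mn@mHSA, at 12.0 ± 1.25 against 16.8 ± 0.97 CPM (edgeR adjusted p 0.0291).

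For acetyl-CoA and NADPH supply, 1 of 8 genes rose and 3 fell with P-Mn@mHSA, 1 rose and 5 fell with P-Mn/TI@mHSA, and none passed between the particles (2 at an unadjusted p under 0.05). Idh1, a cytosolic dehydrogenase that yields NADPH, had 91.8, 96.8 and 88.1 CPM with PBS, 41.2, 45.5 and 41.3 with P-Mn@mHSA, and 36.7, 36.3 and 36.3 with P-Mn/TI@mHSA. The groups did not overlap, and it fell 2.16-fold and 2.53-fold against PBS (edgeR adjusted p 8.37e-11 and 5.3e-12). Pgd, an NADPH-yielding enzyme of the pentose phosphate pathway, rose 1.58-fold and 1.57-fold.

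Of 15 genes of fatty acid elongation and desaturation tested, 0 rose and 3 fell with P-Mn@mHSA, 1 rose and 4 fell with P-Mn/TI@mHSA, and none passed between the particles (1 at an unadjusted p under 0.05). Hacd2, a dehydratase of the elongation cycle, fell 1.67-fold and 1.77-fold from 286 ± 21.4 CPM, and Elovl5, an elongase of polyunsaturated chains, rose 1.13-fold with P-Mn/TI@mHSA (edgeR adjusted p 0.0384). Fatty acid oxidation had 6 of 19 genes higher and 3 lower, then 6 and 2, and 1 higher between the particles. Cpt1a, which admits fatty acids to mitochondria, had 22.3, 26.7 and 23.9 CPM with PBS, 38.3, 35.3 and 38.4 with P-Mn@mHSA, and 53.5, 48.6 and 51.0 with P-Mn/TI@mHSA. It rose without overlap between any groups, 1.54-fold and 2.10-fold against PBS and 1.37-fold between the particles (edgeR adjusted p 0.00427). Echs1, a hydratase of the same pathway, fell 1.56-fold and 1.52-fold.

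Triglyceride and phospholipid synthesis had 4 of 21 genes higher and 7 lower, then 6 and 6, and none between the particles (3 at an unadjusted p under 0.05). Gpat3, an acyltransferase of the first step, rose from 7.92 ± 1.53 CPM with PBS to 24.1 ± 2.28 and 19.8 ± 3.49, 3.03-fold and 2.50-fold. Lpin2, a phosphatidate phosphatase, fell 1.47-fold with P-Mn@mHSA and Cept1, a phosphotransferase, 1.50-fold with P-Mn/TI@mHSA. Lpin2 was also below all PBS libraries with P-Mn/TI@mHSA, at 85.0 to 94.0 against 99.5 to 119.1 CPM. Cept1 was below them with P-Mn@mHSA too, at 35.7 to 42.6 against 45.4 to 53.1 CPM.

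Among 16 tested genes of sterol transport, uptake and ester handling 4 rose and 4 fell, then 6 and 6, and between the particles 2 rose and 1 fell. Lrp1, a receptor for remnant lipoproteins and many other ligands, rose 1.86-fold with P-Mn/TI@mHSA against PBS and 1.35-fold against P-Mn@mHSA (edgeR adjusted p 2.13e-08 and 0.00658), and Osbpl8, an oxysterol-binding protein homologue, fell 1.88-fold and 1.24-fold in the same comparisons. The P-Mn@mHSA libraries were also all above PBS in Lrp1, at 920.1 to 1187 against 672.2 to 845.9 CPM. In Osbpl8 they were all below PBS, at 39.46 to 41.25 against 57.66 to 65.73 CPM. With P-Mn@mHSA, Nceh1, a cholesteryl ester hydrolase, fell 2.14-fold and Stard3, a late endosomal sterol carrier, rose 1.52-fold. The P-Mn/TI@mHSA libraries were likewise all below PBS in Nceh1, at 19.7 to 21.3 against 37.5 to 42.2 CPM. In Stard3 they were all above PBS, at 125.5 to 138.6 against 93.2 to 95.4 CPM. The oxysterol and LXR axis had 1 of 12 tested genes higher and 5 lower, then 4 and 4, and 2 higher and 1 lower between the particles.

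Abca1, the transporter that exports cholesterol, had 17.7, 17.7 and 17.6 CPM with PBS, 6.09, 5.30 and 6.39 with P-Mn@mHSA, and 4.20, 2.68 and 2.28 with P-Mn/TI@mHSA. The groups did not overlap. It was 5.78-fold lower with P-Mn/TI@mHSA than with PBS (edgeR adjusted p 2.64e-10) and 1.94-fold lower than with P-Mn@mHSA (0.00879). Abca2, another transporter of this family, was 1.29-fold higher with P-Mn/TI@mHSA than with P-Mn@mHSA. Nr1h2, a liver X receptor gene, rose 1.29-fold and 1.22-fold against PBS, and Nr1d1, a nuclear receptor of the circadian clock, fell 2.17-fold with P-Mn@mHSA. Nr1d1 was also below all PBS libraries with P-Mn/TI@mHSA, at 15.6 to 17.9 against 29.8 to 34.4 CPM.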

How the data were processed

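Gene expression was measured by RNA sequencing of total RNA extracted with Trizol. The deposited table gives raw read counts and FPKM per gene and library, per the file headers. The submitters' processing notes list cutadapt 1.9, FastQC and genome build GRCm38. Aligner, counter and the treatment of strand and multiply matching reads: not given in the sources used here. Gene coordinates of the table differ from GENCODE M21 and are not printed.

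The counts were analysed with edgeR 4.0.16 in R 4.3.3: filterByExpr, TMM scaling then a single quasi-likelihood fit of group means to all 9 libraries. The 3 comparisons were tested two-sided with Benjamini-Hochberg adjustment over 12454 genes and a threshold of 0.05. Standard errors were derived from the log2 fold change and its F statistic. CPM values are TMM-scaled, and means carry the SD of 3 libraries. The FPKM values are as deposited by the authors. Intervals have a level of 95%. Alternatives were other scalings (median-ratio, upper quartile, library totals), DESeq2 1.42.0, no filter, limma 3.58.1 on log2(FPKM + 1), log2(FPKM + 0.1) and log2(TPM + 1) above a minimum mean FPKM of 0.5, the 2 compared groups alone, a replicate block, and each library left out in turn.

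Named genes are all 33 members and, of each other list and comparison, the changed gene with the lowest p in each direction. The members and lists were chosen with earlier results of these data known. Promoters are from RefSeq (GRCm38.p6), and shared 50-base stretches and exon overlaps were computed from GENCODE M21. No library pair within a group agreed within sampling noise (chi-square per gene 3.80 to 13.2), P-Mn@mHSA replicate 2 standing farthest from its group.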

Additional observations from a re-analysis of the deposited data

How the results depend on the processing

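Of the members changed, 18 of 25 (P-Mn@mHSA against PBS), 21 of 26 (P-Mn/TI@mHSA against PBS) and 0 of 6 (between the particles) passed in all 19 alternatives. Leaving out 1 library gave 21 to 25, 23 to 26 and 2 to 6 changed members, 5243 to 6074, 6039 to 7139 and 129 to 794 changed genes, and median log2 fold changes of the members of -0.31 to -0.24, -0.48 to -0.41 and -0.19 to -0.13. Between the particles, limma on log2(FPKM + 1), log2(FPKM + 0.1) and log2(TPM + 1) gave 3, 3 and 0 members and 144, 140 and 94 genes, no filter 791 genes and the replicate block 312, against 6 members and 476 genes. DESeq2 gave no adjusted p for 2417 genes there. Library totals moved the members' median to -0.34 and -0.53 against PBS and TPM to -0.35 for P-Mn@mHSA. With P-Mn@mHSA, library totals and TPM left 1 member higher (Scap) and 23 and 22 lower, and the share of changed genes that were higher was 37.8% and 37.2% in place of 50.2%. With P-Mn/TI@mHSA library totals gave 39.4% in place of 49.8%, and between the particles limma gave 24.3 to 25.7% in place of 38.7%. Library totals shifted the median of all genes to -0.08 and -0.09.

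Estimates that changed sign were past the threshold in no such setting, and the cause was not tested. Under library totals Npc1 was -0.0321 with P-Mn@mHSA against PBS and Insig2 -0.0272 with P-Mn/TI@mHSA against PBS, and under TPM Npc1 was -0.0536 and Soat1 -0.01 with P-Mn@mHSA. With libraries left out in turn, Npc1 ran from -0.055 to 0.174 with P-Mn@mHSA against PBS. With P-Mn/TI@mHSA against PBS, Srebf2 ran from -0.108 to 0.0023, Insig1 from -0.0478 to 0.0394 and Insig2 from -0.0379 to 0.151. Between the particles Srebf2 ran from -0.0065 to 0.0881, Fdps from -0.259 to 0.0357, Dhcr7 from -0.0506 to 0.121, Npc1 from -0.0795 to 0.149 and Acaca from -0.0426 to 0.128.

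Samples with the same replicate number did not deviate together (r -0.0661 to 0.0611 in 9 pairs, -0.0981 to 0.104 in 18 pairs with different numbers). With 3 libraries per group this cannot settle whether the numbers pair samples, and the labels do not say. The replicate block gave 25, 25 and 4 changed members. Not called under it were Soat1 with P-Mn/TI@mHSA against PBS (adjusted p 0.0594) and, between the particles, Cyp51 (0.0703) and Scd1 (0.0804). Low counts limit Fdps and Tm7sf2 most, with 47 and 66 counts in their lowest libraries. The groups hold 3 libraries each, 1 cell line, no inhibitor alone, no particles lacking the nanoenzymes and no cells outside the model condition.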
